A study of Homo sapiens with 4 samples.

Results

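TARP is a transcript that prostate epithelial cells make from the T cell receptor gamma locus on chromosome 7. Its record on the arrays is given here by every probe set whose annotation names TARP, TRGC1, TRGC2 or TRGV9, including probe sets that name several genes of the locus. That rule took 5 of the 51965 probe sets. All 5 name TARP, 3 of them with TRGC2 (a constant region gene) and 1 of them with TRGV5 and TRGV3 (variable segments). No probe set was named for TRGC1 or TRGV9. A further 2 probe sets name TRGV5 alone. They lie outside the rule and are shown beside it.

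In T cells, the gamma locus is rearranged so that a variable and a joining segment are spliced to a constant region, and the product pairs with a delta chain on the cell surface with the CD3 proteins. Prostate cells do not rearrange it. Their transcript starts within the locus, holds a joining segment and the constant region exons without a variable segment, and is read in a different frame to give the TARP protein. TARP is known as an androgen-induced transcript and as a target of prostate cancer vaccines.

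The cells were LNCaP, an androgen-responsive human prostate cancer line. One group of 2 arrays, labelled LNCap ERG, came from cells given a lentivirus for the transcription factor ERG with red fluorescent protein. The other group of 2 arrays, labelled LNCap Vector, came from cells given the control lentivirus with the fluorescent protein alone. Both were seeded overnight before RNA extraction, and no androgen or other treatment was named for either. The sources do not state whether a group's pair of arrays was hybridised with RNA of separate cultures, so p-values speak only for these 4 arrays and their spread may be technical.

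The values are probe set intensities on Affymetrix arrays, taken to log2 here. The files hold no detection calls, so genes of other organs such as liver, heart and retina gave the reference for background. Of 39 such genes measured, with a median log2 intensity of 3.31, 90% read below 5.57 and 95% below 7.72. The latter value is raised by myoglobin (MB, 10.8), MBP (8.16) and SFTPA2 (7.67), which were bright in these cells. The 95th percentile was the planned level and the 90th its alternative. Values called at background in this text are those under the alternative of 5.57. The labels were checked against known genes. Of 8 LNCaP markers, 6 were measured, among them KLK3 (prostate-specific antigen) and FOLH1, and all 6 lay between 10.7 and 13.0 on every array. ERG does not check the labels: its 4 probe sets lay between 2.65 and 3.58 on all 4 arrays, with differences between the groups of -0.24 to 0.12, and the sources used here do not say whether those probe sets cover the transduced sequence.

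All comparisons between the groups are log2 differences, LNCap ERG minus LNCap Vector. The TARP probe sets were selected on this difference between the groups, so their values are a description with no test.

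Of the 5 TARP probe sets, 4 lay above the lower background level of 5.57 on every array and were 2.57 to 2.74-fold higher in the LNCap ERG arrays. The brightest, 216920_PM_s_at, names TARP and TRGC2. It read 8.49 and 8.31 in the LNCap ERG arrays and 6.97 and 7.06 in the LNCap Vector arrays. The means were 8.40 ± 0.13 and 7.02 ± 0.07 (SD, n = 2 in each group), a log2 difference of 1.38 (standard error 0.11 from limma), or 2.61-fold. On the linear scale these intensities were 360 and 316 against 125 and 134. In RNA of a whole culture, more cells with the transcript and more transcript per cell cannot be told apart.

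209813_PM_x_at is the probe set that names TARP alone. It read 8.27 and 8.18 in the LNCap ERG arrays and 6.83 and 6.87 in the LNCap Vector arrays, with means of 8.22 ± 0.06 and 6.85 ± 0.03 (SD, n = 2 in each group). The log2 difference was 1.38 (standard error 0.09), or 2.60-fold. Here the arrays of a group lay closest together, and the groups were far apart.

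The remaining probe sets that name TARP with TRGC2 were dimmer but had the same pattern. 211144_PM_x_at read 7.65 and 7.50 against 6.04 and 6.21, with means of 7.58 ± 0.11 and 6.12 ± 0.12 (SD, n = 2 in each group) and a log2 difference of 1.45 (standard error 0.11). 215806_PM_x_at read 7.47 and 7.23 against 6.11 and 5.86, with means of 7.35 ± 0.17 and 5.99 ± 0.18 (SD, n = 2 in each group) and a log2 difference of 1.36 (standard error 0.14). None of the 4 lay above the higher level of 7.72 on a LNCap Vector array, and on the LNCap ERG arrays 216920_PM_s_at and 209813_PM_x_at did, while 211144_PM_x_at and 215806_PM_x_at did not. In all 4 both LNCap ERG arrays lay above both LNCap Vector arrays. The smallest distance between the groups was 1.11, while 2 arrays of 1 group differed by 0.25 at most.

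The probe set that names TARP together with variable segments had no such difference. 217374_PM_x_at read 3.71 and 3.99 in the LNCap ERG arrays and 3.99 and 3.66 in the LNCap Vector arrays. The groups overlapped, the means were 3.85 ± 0.20 and 3.83 ± 0.23 (SD, n = 2 in each group), and every array lay below 5.57, so no fold is given. Among all 51963 probe sets with a value on every array, its mean was at percentile 50.5 in the LNCap ERG arrays and 50.2 in the LNCap Vector arrays.

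The probe sets that name TRGV5 alone were as dim. 217381_PM_s_at read 4.49 and 4.29 in the LNCap ERG arrays against 4.17 and 4.37 in the LNCap Vector arrays. 216298_PM_at read 2.97 and 2.90 against 2.97 and 3.09. All of these values lay below 5.57 and gave no fold. Among the probe sets of the locus, those named for TARP alone or with the constant region gene lay above 5.57 on every array. The 3 that name variable segments lay below that level, which 90% of genes of other organs did not reach. They name only TRGV5 and TRGV3, so nothing is said of other variable segments. Levels are set side by side here between probe sets with different probes.

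**Figure D1:**
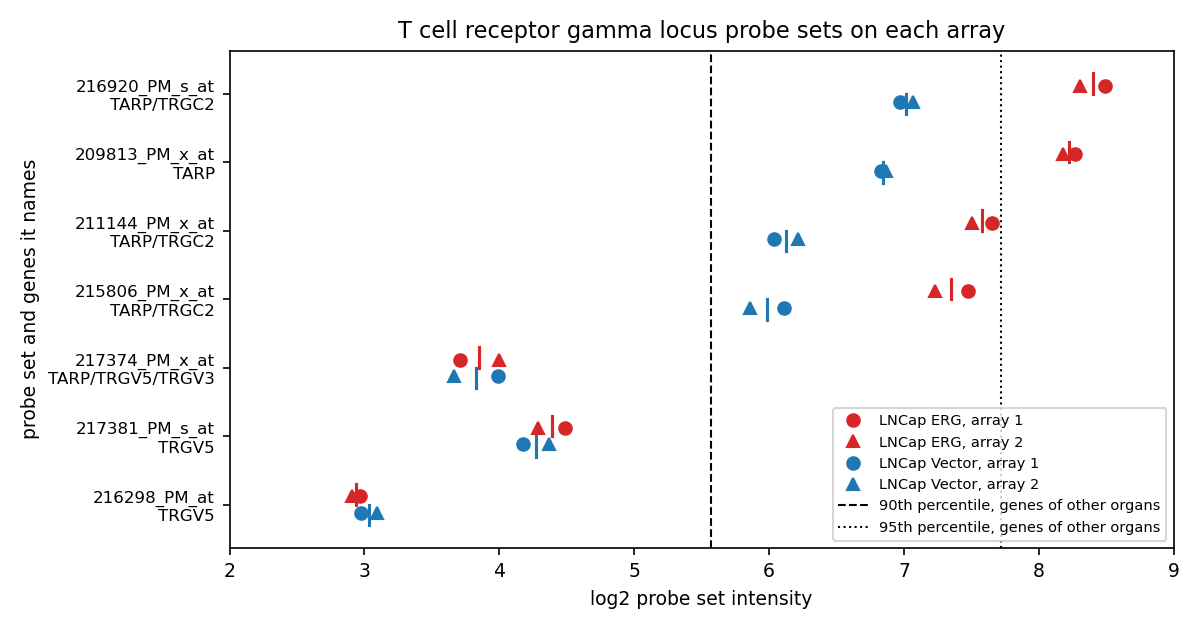
The 7 probe sets of the T cell receptor gamma locus (y axis, with the genes each names) by log2 intensity (x axis). Red marks are the 2 LNCap ERG arrays and blue marks the 2 LNCap Vector arrays, with the mean of each group as a short line. The vertical lines are the 90th (5.57) and 95th (7.72) percentiles of genes of other organs; the 4 upper probe sets separate by group and the 3 lower ones, which name variable segments, lie left of both lines.

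The 4 brighter probe sets gave nearly the same difference, although their levels ran from 7.23 to 8.49 in the LNCap ERG arrays and from 5.86 to 7.06 in the LNCap Vector arrays. Their differences spanned 0.09, less than the 0.25 by which arrays of 1 group could differ. They are not independent measurements. None of the 5 TARP probe sets is of the plain kind whose probes match 1 transcript only: 4 end in _x_at, where probes may also match unrelated transcripts, and 1 ends in _s_at, where probes match several related ones. TRGC1 and TRGC2 are close copies, so RNA of TARP and RNA of TRGC2 cannot be told apart by the 3 probe sets that name both.

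These 4 probe sets held ranks 4, 5, 6 and 7 in the order of upward differences over all 51963 probe sets. Of all probe sets, 14 (0.0269%) were at least 2-fold higher in the LNCap ERG arrays without overlap of the groups, and these 4 were among them. Without the size limit, 18.8% of all probe sets were higher without overlap. TARP was picked for this contrast, so nothing is read from these counts. The groups of 2 arrays allow an exact permutation test to go no lower than p = 0.33, and over all probe sets limma called 0 at an adjusted p of 0.05. With unadjusted p-values 2105 (4.05%) were called higher and 2105 (4.05%) lower. Once adjusted, the methods' t-test called 1, which was lower.

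**Figure D2:**
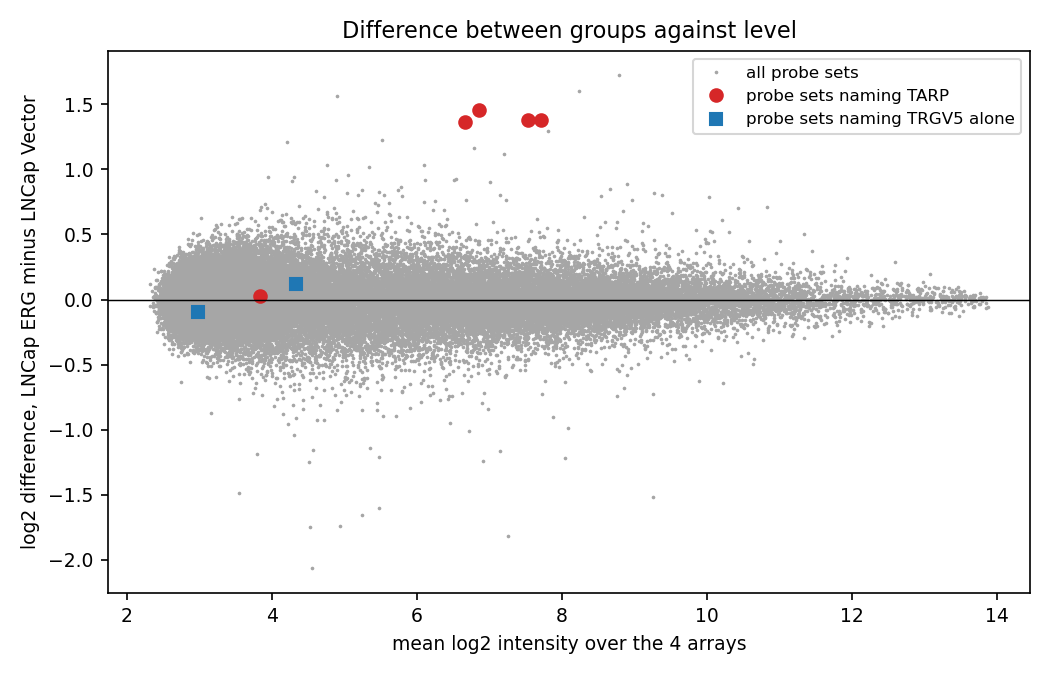
Log2 difference, LNCap ERG minus LNCap Vector (y axis), against the mean log2 intensity over the 4 arrays (x axis) for all 51963 probe sets (grey). Red circles are the 5 probe sets that name TARP, 4 of them between 1.36 and 1.45 and the dimmest at 0.02, and blue squares are the 2 probe sets that name TRGV5 alone.

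The genes that accompany a gamma chain in T cells were not above background in either group. Of 35 listed T cell genes, 31 were measured, and 0 lay above 5.57 on any array, their values running from 2.47 to 5.18. CD3D, CD3E and CD3G, subunits of the CD3 complex, lay at means of 3.61, 3.33 and 3.03 in the LNCap ERG arrays and 3.52, 3.39 and 3.05 in the LNCap Vector arrays. CD247, the CD3 zeta chain, lay at 3.85 and 3.67, and LCK, the kinase that starts receptor signalling, at 3.14 and 3.34. The brightest of the list were PTCRA, the pre-T cell receptor alpha chain, and CD5, a surface receptor. PTCRA read 5.18 and 4.66 against 4.74 and 4.67, and CD5 read 5.05 and 4.72 against 4.69 and 5.13, so the groups overlapped in each.

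The sum of the T cell list on the linear scale was 427 and 379 in the LNCap ERG arrays and 399 and 403 in the LNCap Vector arrays, so these groups also overlapped. Its median log2 difference was 0.00, beside 0.01 over all 19583 genes taken by their brightest probe set. No gene of the list passed limma's adjusted threshold. Before adjustment 0 were called higher and 2 lower, where 4.76% of all genes were called higher and 3.3% lower. Those 2 were BCL11B, a transcription factor of T cell commitment, at -0.48 (adjusted p = 0.56 from limma), and THEMIS, a thymocyte selection protein, at -0.30 (adjusted p = 0.59 from limma). LCK and TRAT1, an adaptor of the receptor complex, had -0.21 and 0.20 (adjusted p = 0.66 and 0.67 from limma). All 4 are differences between values at background.

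The alpha, beta and delta loci, which encode the other receptor chains, were measured by 23 probe sets that name 1 gene each. Their values ran from 2.50 to 4.18, 0 lay above 5.57, and their median log2 difference was -0.03. Of these 23, 8 had a difference above 0 and 15 below, 0 were higher and 7 lower without overlap (19.4% of all probe sets were lower in that way), and 0 had an unadjusted p under 0.05 in limma. The 3 largest were those of delta locus probe sets (TRD), at -0.23, -0.21 and -0.20, and the fourth was that of the joining segment TRAJ17, at -0.19, with adjusted p-values of 0.66 to 0.70 from limma. TRBC1, the beta chain constant region, had 0.08 and -0.03 at its probe sets.

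Markers of other immune cells were at the same low level. The 12 measured NK and cytotoxic genes ran from 2.62 to 4.42 and the 15 measured B cell and myeloid genes from 2.61 to 4.44, with 0 of either list above 5.57 on any array. Their median log2 differences were 0.02 and -0.03. KLRK1, an activating NK receptor, had 0.34 and NCR1, another, had 0.20 (adjusted p = 0.62 and 0.67 from limma). CD163, a macrophage receptor, had 0.27, and PAX5, the B cell transcription factor, had -0.23 (adjusted p = 0.59 and 0.62 from limma).

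**Figure D3:**
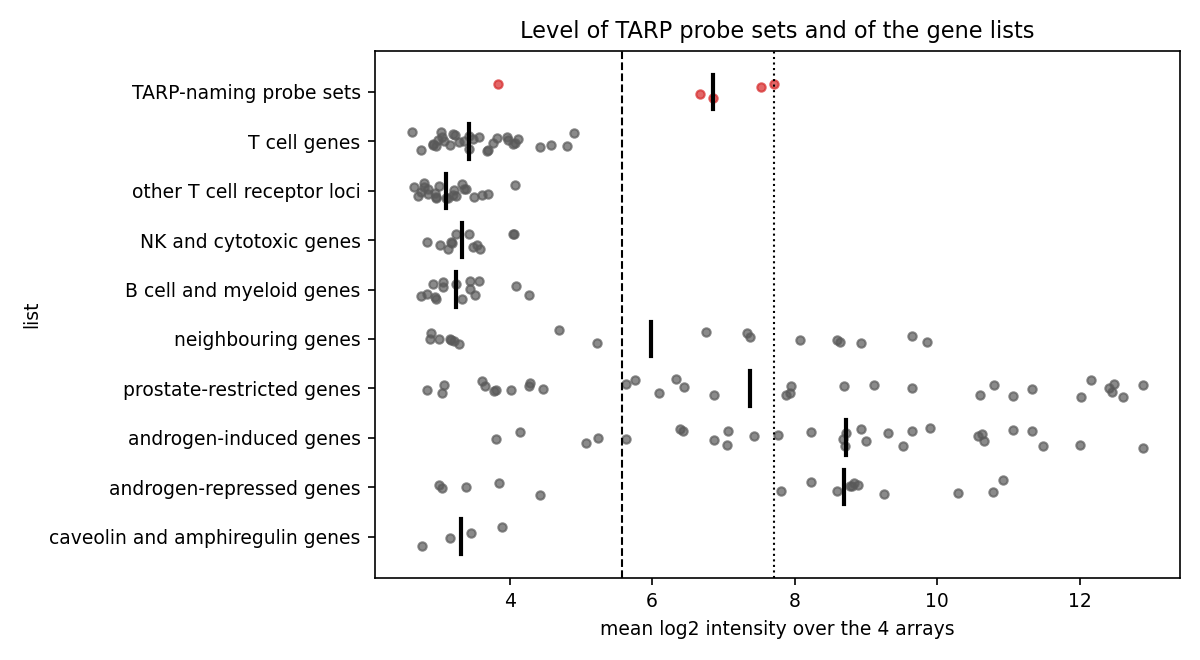
Mean log2 intensity over the 4 arrays (x axis) of the 5 TARP probe sets (red) and of the genes of each list (grey points, 1 per gene by its brightest probe set, or 1 per probe set for the other T cell receptor loci). Thick lines are medians and the vertical lines the 90th (5.57) and 95th (7.72) percentiles of genes of other organs; all T cell, NK, B cell and myeloid genes lie left of both lines.

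The genes that lie next to the locus did not show the difference seen for TARP. RefSeq (GRCh38.p14) places 59 genes other than those of the locus within 2 Mb of its members, and 18 of them were measured. STARD3NL, a late endosomal cholesterol-binding protein, is the nearest measured gene on the constant region side. It read 9.54 and 9.67 in the LNCap ERG arrays and 9.66 and 9.72 in the LNCap Vector arrays, so the groups overlapped (log2 difference -0.08, standard error 0.10, adjusted p = 0.86 from limma). AMPH, a synaptic vesicle protein and the nearest on the variable segment side, lay at background in both groups, at 3.27 and 3.30.

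Over the 18 neighbours the median log2 difference was 0.02, with a range of -0.23 to 0.25. No neighbour passed limma's adjusted threshold, and before adjustment 1 of the 18 was called higher and 0 lower, near the 4.76% and 3.3% of all genes. A difference above 0 was found for 10 and below 0 for 8, beside 52.8% of all genes above 0. The 1 was VPS41, an endosome tethering subunit, at 7.43 and 7.49 against 7.19 and 7.24 (log2 difference 0.25, standard error 0.09, adjusted p = 0.60). ANLN, a cytokinesis protein, had -0.18, SUGCT, a mitochondrial enzyme of glutarate metabolism, 0.25 and EPDR1 -0.23, with adjusted p-values of 0.66 to 0.74 from limma. SUGCT and EPDR1 lay below 5.57 on every array, so their differences are between values at background. Of the 18 neighbours, 9 did not lie above 5.57 on any array. The TARP differences of 1.36 to 1.45 lie outside the range of the neighbours. TARP was chosen for its difference, so nothing is read from this.

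Other transcripts that are largely restricted to prostate differed little between the groups. Of 36 listed, 34 were measured and 23 lay above 5.57 on at least 1 array (17 above 7.72). Their median log2 difference was 0.03, with 20 above 0 and 14 below and a range of -0.38 to 0.56. No gene of the list passed limma's adjusted threshold, and before adjustment 1 of the 34 was called higher and 2 lower, near the 4.76% and 3.3% of all genes. The 1 higher was ACP3, prostatic acid phosphatase, at 6.65 and 6.58 in the LNCap ERG arrays against 5.97 and 6.13 in the LNCap Vector arrays, a log2 difference of 0.56 (standard error 0.10, adjusted p = 0.50). KLK2, a kallikrein protease, had -0.29 and PCGEM1, a prostate long noncoding RNA, had -0.38 from values at background (adjusted p = 0.59 for both, from limma). AZGP1, a secreted zinc-binding glycoprotein, had 0.45 (adjusted p = 0.64). KLK3, HOXB13, FOLH1 and STEAP1 had -0.13, 0.04, 0.08 and 0.03. Among these transcripts the brighter TARP probe sets stood apart in size. TARP was chosen for that size, and the list was chosen with earlier results of these data known, so nothing is read from this.

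TARP is itself known as androgen-induced, and the other androgen-induced genes mostly had differences of the opposite sign. The list was chosen with earlier results of these data known, so its counts are a description and support no direction. Of 37 listed, 30 were measured. 25 had a difference below 0 and 5 above, against 47.2% of all genes below 0 and 52.8% above, and the median was -0.19, beside 0.01 over all genes. No gene of the list passed limma's adjusted threshold, and before adjustment 11 were called lower and 1 higher, where 3.3% of all genes were called lower and 4.76% higher. The groups did not overlap in 20 that were lower and 2 that were higher, where 19.1% of all genes were lower and 21.7% higher in that way.

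PTGER4, a prostaglandin receptor, had the smallest p. It read 6.05 and 6.06 in the LNCap ERG arrays against 6.79 and 6.84 in the LNCap Vector arrays, a log2 difference of -0.76 (standard error 0.09, adjusted p = 0.24 from limma). SPOCK1, a matrix proteoglycan, had -0.85 with its LNCap ERG values and the first LNCap Vector value (5.48) at background (adjusted p = 0.47 from limma). CENPN, a centromere protein, had -0.45 (adjusted p = 0.52 from limma). FKBP5, a steroid receptor co-chaperone used as a read-out of androgen action, read 10.37 and 10.41 against 10.95 and 10.81, a log2 difference of -0.49 (adjusted p = 0.52 from limma). NDRG1, a stress-responsive gene, was the 1 higher, at 0.45 (adjusted p = 0.52). PMEPA1, KLK2, TMPRSS2 and KLK3 had -0.38, -0.29, -0.20 and -0.13. Besides NDRG1, the genes with a difference above 0 were HOMER2, KLK4, SLC45A3 and ABCC4, at 0.13, 0.06, 0.04 and 0.01.

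The list of androgen-repressed genes was written with values of DDC, BCHE, PEG3 and the UGT2B genes in these data known, so its counts are a description and support no direction. Of 18 listed, 16 were measured, 11 had a difference above 0 and 5 below, and the median was 0.15. Without DDC, BCHE and PEG3, 9 of 13 were above 0 and the median was 0.10. Without the UGT2B genes as well, 6 of 10 were above 0 and the median was 0.04, beside 52.8% of all genes above 0 and a median of 0.01. No gene of the list passed limma's adjusted threshold, and before adjustment 7 of the 16 were called higher and 1 lower, or 2 higher and 0 lower of those 10, where 4.76% of all genes were called higher and 3.3% lower. The 1 lower was PEG3, an imprinted zinc finger gene, at -1.52. DDC and BCHE had 1.72 and 1.60 (adjusted p = 0.11 for each of these 3, from limma). UGT2B17, UGT2B15 and UGT2B28, enzymes that attach glucuronic acid to androgens, had 1.29, 0.89 and 0.60 (adjusted p = 0.19, 0.31 and 0.49 from limma). The UGT2B15 and UGT2B28 values came from _x_at probe sets, whose probes may also match other transcripts. CAMK2N1, an inhibitor of a calmodulin-dependent kinase, had 0.68 (adjusted p = 0.39 from limma). OPRK1, the kappa opioid receptor, had 0.01 at background.

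TARP protein has been linked to caveolins and amphiregulin in prostate cancer cells. CAV1, CAV2, CAV3 and EREG, a relative of amphiregulin, were measured. They lay between 2.66 and 3.96 on every array, below 5.57, with log2 differences of 0.15, 0.09, 0.08 and 0.13, and none had an unadjusted p under 0.05 in limma. AREG itself was not analysed here.

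**Figure D4:**
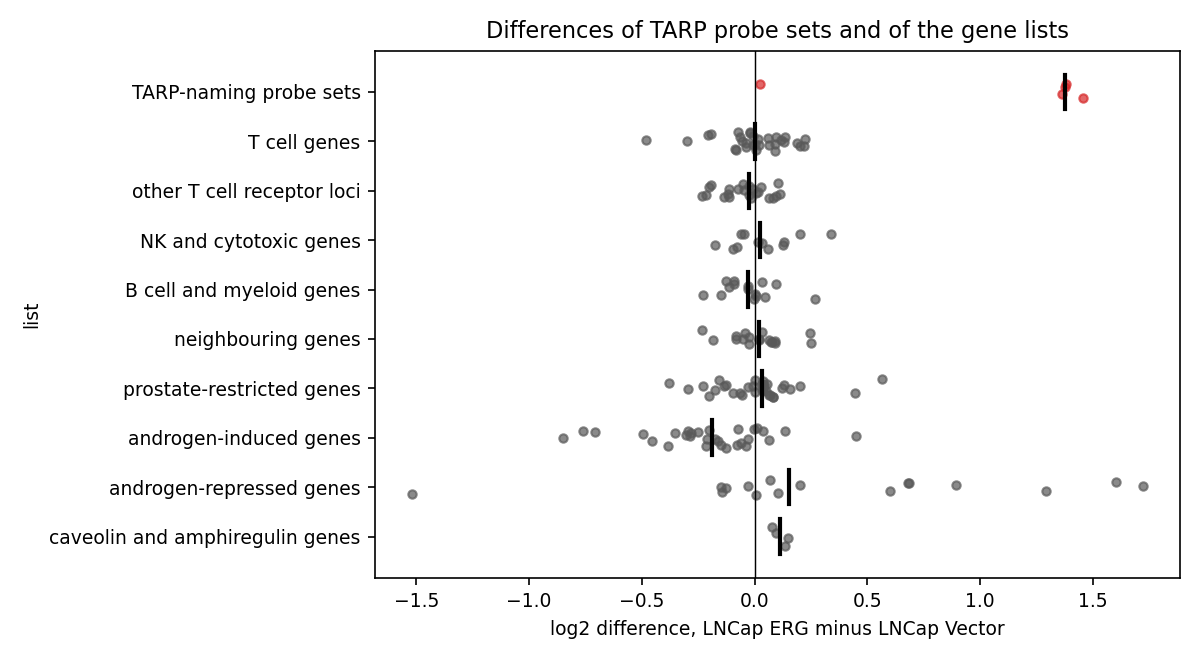
Log2 difference, LNCap ERG minus LNCap Vector (x axis), of the 5 TARP probe sets (red) and of the genes of each list (grey points, 1 per gene by its brightest probe set, or 1 per probe set for the other T cell receptor loci), with medians as thick lines. The medians of the T cell, immune, neighbouring and prostate-restricted lists lie between -0.03 and 0.03. Those of the androgen-induced, androgen-repressed, and caveolin and amphiregulin lists lie at -0.19, 0.15 and 0.11, and 4 of the TARP probe sets at 1.36 to 1.45.

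The genes whose pattern over the 4 arrays was most like that of TARP were found by the root mean square (RMS) distance between log2 values centred on their own mean, against 216920_PM_s_at. The other 3 brighter TARP probe sets lay at RMS distances of 0.04 to 0.12. The search covered 5563 other genes with a probe set whose mean over the 4 arrays was above 7.72. UGT2B17 and BCHE met that limit through the LNCap ERG arrays, their LNCap Vector values lying below it, and 216920_PM_s_at itself, with a mean of 7.71, lay just under it. The closest were UGT2B17 (0.14), DDC (0.19), BCHE (0.19), ASPH (0.28), UGT2B15 (0.29) and RALGAPA2 (0.29). The median distance of the 7657 candidate probe sets was 0.70. With differences of this size, the distance reflects mostly the group difference, and 4 arrays are too few for a correlation.

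UGT2B17 was closest, with log2 intensities of 8.49 and 8.43 in the LNCap ERG arrays and 7.29 and 7.04 in the LNCap Vector arrays. DDC, the decarboxylase of dopamine and serotonin synthesis, read 9.65 and 9.64 against 7.95 and 7.90. BCHE, butyrylcholinesterase, read 8.92 and 9.16 against 7.34 and 7.53. ASPH, an aspartyl hydroxylase of the endoplasmic reticulum, read 9.05 and 9.12 against 8.21 and 8.26. RALGAPA2, a regulator of the Ral GTPases, read 9.66 and 9.70 against 8.80 and 8.93.

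The probe sets of some of these genes did not behave alike. The 8 of ASPH had log2 differences from 0.06 to 0.92, all above 0. Of the 6 of RALGAPA2, the closest to TARP had 0.82 and the other 5 had -0.09 to 0.09. The dim second probe set of DDC had 0.06. The 3 of UGT2B15 had 1.12, 0.89 and, for a dim one, -0.00088. With the lower level of 5.57 as the limit, a choice made after seeing the data, 4 of the 6 genes stayed and SCNN1G, an epithelial sodium channel subunit (RMS distance 0.14), and STXBP5L, a syntaxin-binding protein (0.22), took the place of ASPH and RALGAPA2.

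**Figure D5:**
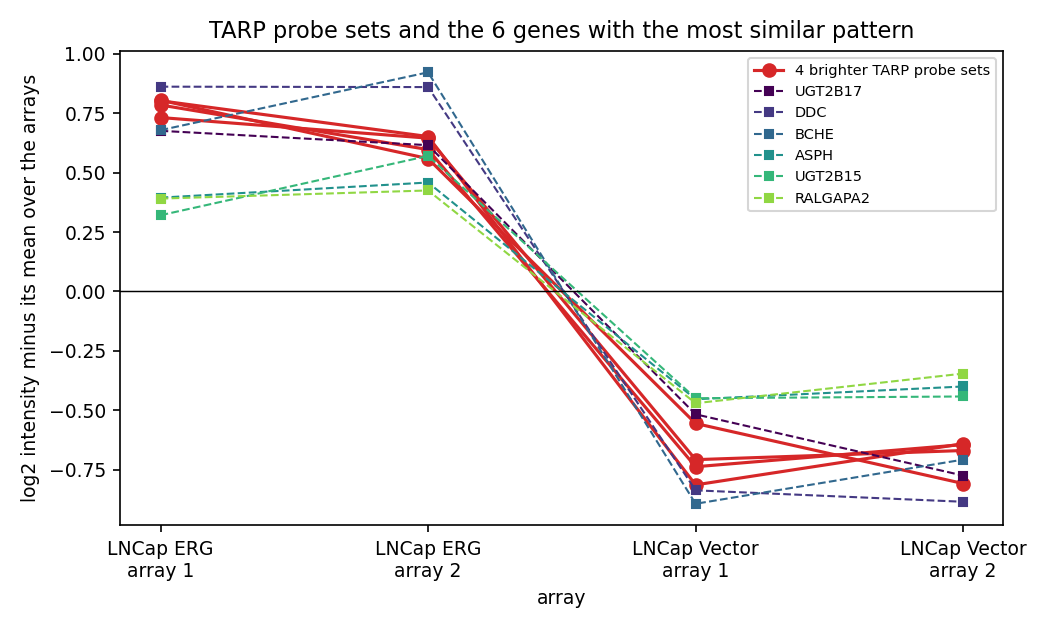
Log2 intensity minus its own mean over the 4 arrays (y axis) on each array (x axis) for the 4 brighter TARP probe sets (red) and for the 6 genes with the smallest RMS distance to the brightest of them (dashed). All lines are above 0 in the 2 LNCap ERG arrays and below 0 in the 2 LNCap Vector arrays, and UGT2B17 runs closest to TARP.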

How the data were processed

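The authors scanned the arrays, analysed the images with dChip and normalized them with RMAexpress. Their versions and the steps run are not given in the sources used. Each deposited intensity summarises 1 probe set. The scale is unstated and was read as linear, since array medians lie at 14.0 to 14.4 and maxima at 14962 to 15344, and log2 was taken. Of the probe sets, 2 lacked a value and were dropped, 39464 name 1 gene in the platform annotation, 838 several and 11661 none. RefSeq (GRCh38.p14) holds the Entrez identifiers of 39413. The array's genome build is unnamed, so the text prints neither coordinates nor sequences.

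All 51963 probe sets were fitted together by limma 3.58.1 under R 4.3.3 with moderated variances (2 residual and 3.55 prior degrees of freedom), with Benjamini-Hochberg adjustment and a threshold of 0.05. The fit was also run on simulated data with the same noise for every probe set, a setting that the real arrays need not share. Genes of a list were taken by their brightest single-gene probe set. The members and lists were chosen with earlier results of these data known. Named were all TARP probe sets, the 6 nearest patterns, up to 4 genes with the smallest p per list, the 2 brightest T cell genes and the nearest neighbours. Other genes in the text were named after their values were seen. In the immune and prostate lists these were CD3D, CD3E, CD3G, CD247, TRBC1, KLK3, HOXB13, FOLH1 and STEAP1. In the androgen lists they were FKBP5, PMEPA1, TMPRSS2, HOMER2, KLK4, SLC45A3, ABCC4, UGT2B28, CAMK2N1 and OPRK1.

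Alternatives tried were leave-one-out fits, the replicate block, the methods' t-test, an offset of 16, quantile normalization again, housekeeping centring, robust trended moderation, a filter on dim probe sets, plain probe sets and 1 or averaged probe sets per gene. Precision is limited by the number of arrays. Plots were drawn with matplotlib 3.10.9 in Python 3.11.15.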

Additional observations from a re-analysis of the deposited data

How the results depend on the processing

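The log2 differences of the 4 brighter TARP probe sets were above 0 under each alternative run. These probe sets were picked for a large difference, so nothing is read from the kept sign. Their groups lay at least 1.11 apart, so leaving out an array could not bring a difference to 0. The differences were 1.36 to 1.45, 1.24 to 1.54 with single arrays left out, 1.37 to 1.47 with quantile normalization again and 1.35 to 1.44 with housekeeping centring. An offset of 16 on the linear scale lowered them to 1.28 for 216920_PM_s_at, 1.26 for 209813_PM_x_at, 1.27 for 211144_PM_x_at and 1.17 for 215806_PM_x_at, as an offset does by construction, most at lower intensities. The replicate block left them at 1.36 to 1.45 by construction, since each replicate number holds an array of each group. With the block 0 probe sets were called, as without it (limma, with 2050 called higher and 2085 lower before adjustment). The arrays share only a number: deviations of arrays with the same number had a correlation of 0.14 over 16638 probe sets above 5.57, and the labels name no pairing. Over all probe sets limma called 0 (2105 higher and 2105 lower before adjustment). Trended and robust moderation called 70 (41 higher, 29 lower), among them 4 androgen-induced and 7 androgen-repressed genes. With 1 probe set per gene 2 passed, both in the androgen-repressed list, and with averaged probe sets 14 passed, 4 of them in that list. The methods' t-test called 1 after adjustment. The cause was not tested. The T cell, prostate-restricted and neighbouring lists had 0 calls under every alternative. Above the brightest gene of other organs (10.8) lay 10 prostate-restricted genes, against 17 above the 95th percentile, and 7 androgen-induced genes, against 19. The T cell list had 0 above every one of these levels. The median of the T cell list was -0.04 to 0.05 when 1 array was omitted.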
